A study of Mus musculus with 48 samples.

Results

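DO11.10 is a mouse T hybridoma, a fused T cell line that responds to a peptide of ovalbumin (pOVA). In it, 108 of 10098 measured genes reached most of their antigen response at 100 nM pOVA, well below the highest dose. The genes were chosen on their mean levels in libraries without PD-1 engagement at 1, 100 and 10000 nM pOVA. A gene was kept if it had at least 5 RPM (tags scaled to library size) at 10000 nM, if (RPM + 1) was at least 2 times higher at 10000 than at 1 nM, and if at least a share of 0.6 of that rise was present at 100 nM. Egr1, Egr2, Egr3, Nr4a1 and Nr4a3 were left out by name. Of these 5, 2 would have met the rule, Egr1 with a share of 0.711 and Nr4a1 with 0.610. A further 147 genes had the same rise but a lower share at 100 nM, and they are called the other induced genes here. The membership depends on single libraries: leaving out 1 of the 7 libraries of the rule at a time gave 93 to 126 genes, and 56 of the 108 were found in every such choice.

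Capped 5′ ends of total RNA were counted by CAGE (cap analysis of gene expression), in which each tag marks a transcription start. The 26 hybridoma libraries (strain label BALB/c x AKR/J) received 0, 1, 10, 100, 1000 or 10000 nM pOVA, with and without PD-1 engagement. The 22 libraries of primary CD4+ T cells (BALB/cCrSlc mice) received 0, 10, 100, 1000 or 10000 ng/ml 2C11, an antibody to CD3, also with and without engagement. Each group held 2 libraries, and the groups at 10000 held 3. The hybridoma is a single fused, transformed line, and neither the way PD-1 was engaged nor the time of stimulation is given in the sources used here. Nothing says that replicates came from separate cultures or animals, so p-values measure the spread between these samples, which may be technical.

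A T cell receptor that binds peptide starts calcium, MAP kinase and NF-κB signalling, and the transcription factors at the end of these routes (NFAT, AP-1, EGR, NF-κB) switch on early genes. Many of those genes encode brakes on the same routes, such as IκBα and A20 for NF-κB, dual specificity phosphatases for MAP kinases and NAB proteins for EGR factors. PD-1, encoded by Pdcd1, is an inhibitory receptor that recruits the phosphatase SHP-2 and dampens signalling close to the receptor and CD28.

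Library totals were 7.79 to 19.7 M tags in the hybridoma and 4.42 to 22.8 M in CD4+ cells. In the hybridoma, 7 of 8 T cell markers were measured (all but Cd4), and their summed level was 1199 to 1874 RPM. In CD4+ cells all 8 were measured, Cd4 among them, with a summed level of 3176 to 5004 RPM. All 10 B cell and antigen presentation markers were also measured in the hybridoma, and here a pair of libraries stood apart. Both libraries numbered 2 at dose 0 had a summed level of these markers of 1034 RPM without and 831 RPM with engagement. The other 24 hybridoma libraries had 71.3 to 246.9 RPM. Counts of members that rose against dose 0 are therefore also given without both libraries, with the values of several members whose call changed. Of 6 myeloid and of 6 NK and cytotoxic markers, 1 each was measured in the hybridoma.

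RefSeq promoter windows (build GRCm38.p6, 250 bases before to 50 bases after an annotated start) were found for 83 of the 108 genes, in 111 windows. They were searched on both strands for GCGNGGGCG (EGR), TGANTCA (AP-1), TGACGTCA (CRE), TGGAAA (the NFAT core) and the kB and CArG consensus motifs, and on the gene strand for TATAAA. The kB motif was found in 14 of the 111 windows (12.6%), against 4.98% of the 9776 windows of all genes in the hybridoma table and 7.86% of the 140 windows of the other induced genes. TGANTCA stood in 9.91% of the members' windows, 7.14% of those of the other induced genes and 4.66% of those of the hybridoma table, and TATAAA in 10.8%, 7.14% and 4.03%. The NFAT core had 21.6%, 24.3% and 16.1%, the EGR motif 12.6%, 12.1% and 10.8%, CRE 4.51%, 5% and 3.43%, and CArG 1.80%, 1.43% and 1.21% in the same order. Over all 32851 RefSeq windows, which include many genes with no cluster in the table, the shares were 4.51% for kB, 7.81% for TGANTCA, 8.32% for TATAAA, 21.4% for the NFAT core, 5.55% for EGR, 1.79% for CRE and 1.63% for CArG. Set beside these, the NFAT core was about as frequent in the members' windows, and TGANTCA and TATAAA differed less than against the hybridoma table. Matches are descriptions of letters, not of binding, and motifs can overlap (the kB and NFAT letters do in Nfkbia). A gene can count with several windows, and those of Nfkb2 that hold the kB motif partly overlap. The windows follow annotated starts and were not matched by position to the tag clusters, which are on build mm9. Some windows may therefore belong to starts not used in these cells. The 4 windows below are shown because they hold the kB motif and belong to a costimulatory receptor with one of the steepest responses and to 3 brakes on the factors named above. Capitals mark every motif match.
Tnfrsf9 (1 of its 2 windows), chr4:150927749-150928048, plus strand: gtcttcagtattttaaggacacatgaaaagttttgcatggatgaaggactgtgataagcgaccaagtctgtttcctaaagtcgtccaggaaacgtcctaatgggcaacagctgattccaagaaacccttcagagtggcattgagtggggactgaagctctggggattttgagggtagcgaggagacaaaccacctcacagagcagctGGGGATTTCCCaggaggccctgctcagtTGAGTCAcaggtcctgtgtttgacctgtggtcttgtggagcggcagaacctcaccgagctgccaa
Nfkbia, chr12:55492598-55492897, minus strand: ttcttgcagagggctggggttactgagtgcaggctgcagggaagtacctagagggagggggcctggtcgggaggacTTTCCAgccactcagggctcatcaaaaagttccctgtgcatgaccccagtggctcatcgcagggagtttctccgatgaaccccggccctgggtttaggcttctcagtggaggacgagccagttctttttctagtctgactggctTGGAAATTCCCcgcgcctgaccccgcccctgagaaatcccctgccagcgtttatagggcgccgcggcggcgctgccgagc
Tnfaip3 (1 of its 2 windows), chr10:19015361-19015660, minus strand: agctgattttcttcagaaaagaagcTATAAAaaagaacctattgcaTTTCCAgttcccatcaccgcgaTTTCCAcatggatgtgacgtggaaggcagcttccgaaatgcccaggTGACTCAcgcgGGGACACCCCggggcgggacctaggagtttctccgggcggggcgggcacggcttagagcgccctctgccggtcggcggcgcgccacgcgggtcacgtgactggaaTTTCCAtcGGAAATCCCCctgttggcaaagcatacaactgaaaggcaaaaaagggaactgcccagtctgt
Nab1, chr1:52500399-52500698, minus strand: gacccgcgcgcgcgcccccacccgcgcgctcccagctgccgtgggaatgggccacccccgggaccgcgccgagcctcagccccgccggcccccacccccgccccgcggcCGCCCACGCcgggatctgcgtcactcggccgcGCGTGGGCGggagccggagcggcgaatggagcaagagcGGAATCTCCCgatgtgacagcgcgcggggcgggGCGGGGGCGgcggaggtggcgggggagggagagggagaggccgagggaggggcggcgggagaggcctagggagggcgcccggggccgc
In Tnfrsf9 the kB match begins 43 bases before the annotated start and the AP-1 match 15 bases before it. In Nfkbia the kB match begins 29 bases before the start, and in Tnfaip3 the nearer of its 2 kB matches begins 12 bases before it. Nab1 holds 3 EGR matches, at 141, 109 and 38 bases before the start, and a kB match at 71 bases before it.

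The values that chose the genes are given as a description. The median member had 6.86 RPM at 1 nM, 20.8 RPM at 100 nM and 24.9 RPM at 10000 nM, and its (RPM + 1) ratio was 3.04 (range 2.01 to 52.4). The median share of the rise present at 100 nM was 0.738, and 8 members had a share above 1, among them Cd69 (1.07) and Lef1 (1.25). At the limit of 0.6, Hspa4l (0.6002), Gm5828 (0.6005) and Hspa1b (0.601) were just inside, and Klf10 (0.5997), Hipk2 (0.599) and Depdc7 (0.597) just outside. In 5 members, Gm10221, Gm14017, Gm16335, Phf10 and Vcp, libraries of the 1 nM group overlapped with those of 100 or 10000 nM. A group of 5 members, Gm10221, Gm14017, Gm9833, Phf10 and Vcp, differed over 3-fold between libraries of the same group in at least 3 of the 12 hybridoma groups. Gm10221 ranged from 0.520 to 238.1 RPM and Vcp from 25.5 to 344.1 RPM. The start regions of the members were not more compact than those of all genes. A single tag cluster was found in 73.1% of members (79.3% of all genes), and the main cluster had a median width of 46 bases (47 for all genes).

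Tnfrsf9 encodes 4-1BB, a costimulatory receptor of activated T cells. Its main cluster lies at mm9 chromosome 4, 150302125 to 150302138 on the plus strand, and holds 58.9% of its tags. Without engagement its libraries had 2.41 and 3.30 RPM at dose 0, and 2.01 and 1.71 RPM with 1 nM. They reached 5.76 and 7.21 RPM at 10 nM and 124 and 96.6 RPM at 100 nM. The 1000 nM libraries had 129 and 114 RPM, and those of 10000 nM had 155, 160.1 and 132 RPM. Nab2, a corepressor of EGR factors (mm9 chromosome 10, 127103613 to 127103732, minus strand), had 0.460 and 4.72 RPM at dose 0, 13.1 and 12.4 at 10 nM, 77.7 and 95.7 at 100 nM, and 108 and 106 at 1000 nM. In both genes the largest step in RPM was that from 10 to 100 nM, and every library at 100 nM lay above every library at 10 nM. The rule used these 100 nM libraries and asked for most of the rise at that dose. A large step up to 100 nM is therefore favoured by the choice and is given as a description only. Tnf, which encodes the inflammatory cytokine TNF (mm9 chromosome 17, 35338950 to 35338953, minus strand), started higher, at 19.8 and 32.2 RPM at dose 0, and had 141 and 124 RPM at 100 nM and 171 and 200.5 RPM at 1000 nM. Pdcd1 itself (mm9 chromosome 1, 95949132 to 95949161, minus strand) was a member, with 52.8 and 64.4 RPM at dose 0, 196 and 168 RPM at 100 nM and 182 and 163 RPM at 1000 nM.

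**Figure D1:**
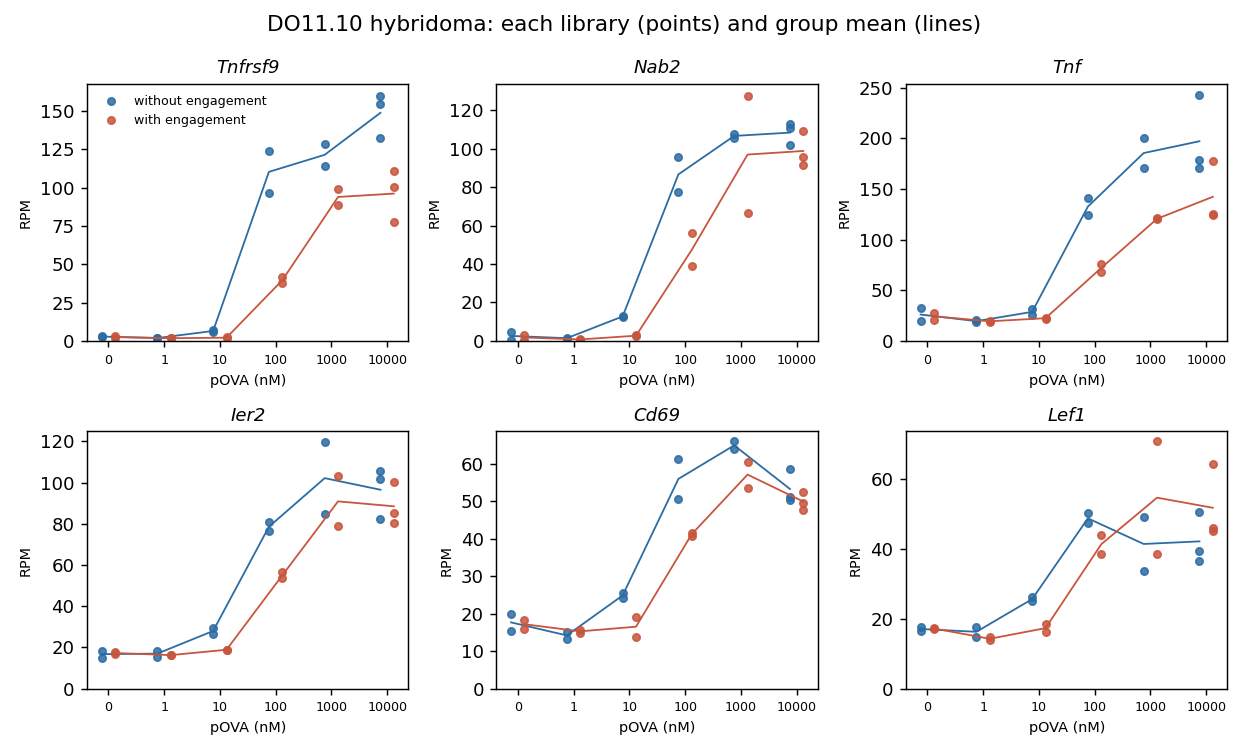
RPM of 6 members in every hybridoma library (points) and group means (lines) by pOVA dose, drawn as equally spaced categories, without (blue) and with (red) PD-1 engagement. At 100 nM every engaged library lies below every unengaged one in all 6 panels. The unengaged libraries at 1, 100 and 10000 nM chose the genes, which favours high unengaged values at 100 nM. Of all 10098 genes, 6252 lie below 0 in the log2 difference at that dose, and the share without overlap was not counted. At 10 nM the engaged Tnfrsf9 libraries have 2.33 and 1.86 RPM, below both unengaged libraries.

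The 0, 10 and 1000 nM libraries were not used to choose the genes and allow a test of stimulation without engagement. At 1000 against 0 nM, 76 of the 108 members rose and none fell (limma on log2(RPM + 1), adjusted p under 0.05 over 10094 genes), where 7.14% of all genes rose and 23.4% fell. The median log2 difference was 1.20 in the members, 1.25 in the other induced genes and −0.24 over all genes, so a zero difference in RPM stands above the middle of all genes here. With quantile normalization 86 members rose and none fell, against 12.6% and 13.5% of all genes. Of the other induced genes, 117 of 147 rose. The members were chosen for high levels at the neighbouring doses of 100 and 10000 nM, so their direction here is no independent support. Nab2 rose by 5.22 (SE 0.45, adjusted p = 1.14e-07), Tnfrsf9 by 4.997 (SE 0.19, adjusted p = 1.11e-12) and Tslp, an epithelial type cytokine gene, by 3.84 (SE 0.22, adjusted p = 8.28e-10, limma). Trib1, a pseudokinase that acts as a scaffold for protein degradation, rose by 3.13 and Tnf by 2.82 on the same scale.

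By role, 4 of the 5 members on a list of immediate early and receptor-induced transcription factors rose at 1000 nM: Ier2 by 2.53, Fos by 2.51, Junb by 1.50 and Crem by 1.20. Ier5 had a difference of 0.25 (adjusted p = 0.485, limma), and of 0.80 (adjusted p = 0.0133) without both dose 0 libraries numbered 2. Among the NF-κB members, Nfkbid (the nuclear IκB protein IκBNS) rose by 2.18, Tnfaip3 (the ubiquitin-editing enzyme A20) by 1.84 and Nfkbia (IκBα) by 1.04. The subunit genes Relb (0.91, adjusted p = 0.0712) and Nfkb2 (0.22, adjusted p = 0.686) did not pass in limma. Without both dose 0 libraries numbered 2 they did, with 1.32 (adjusted p = 0.0339) and 1.21 (adjusted p = 0.00018). All 5 members on the surface list rose, namely Tnfrsf9, Tigit (an inhibitory receptor, by 2.31), Cd69 (an early activation marker, by 1.83), Pdcd1 (by 1.55) and Cd28 (the main costimulatory receptor, by 1.44). The 3 feedback members rose, Trib1 as above and the MAP kinase phosphatases Dusp2 by 2.69 and Dusp5 by 1.37. Tnf and Lta (lymphotoxin alpha, by 1.39, and by 2.11 without both dose 0 libraries numbered 2) were the cytokine members. Nfatc1, a calcium-regulated transcription factor, rose by 1.52, and Gadd45b, a stress-response gene, by 1.84. Pim1, a survival kinase, had a difference of 0.75 (adjusted p = 0.135, limma), or of 1.54 (adjusted p = 0.000328) without both libraries. Irf8, a myeloid and B cell transcription factor that activated T cells also express, had −0.10, or 1.45 (adjusted p = 0.000225, limma) without them.

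The rest of those lists gives the setting. Among the transcription factors, 12 of the 15 tested that were no members also rose at 1000 nM, as did 10 of the other 12 cytokine genes and 9 of the other 18 feedback genes. Of the other 10 NF-κB genes 2 rose, of the other 9 surface genes 5, and of the other 10 survival and stress genes 5, with 1 lower. The calcium and NFAT list went the other way: of its 9 genes that were no members 1 rose and 5 fell, and the median over all 10 was −0.58. Of 6 other effector transcription factor genes 1 rose and 1 fell, and 1 feedback gene fell. Among the most abundant members outside the lists, Obfc2a, which encodes a single-stranded DNA-binding protein, went from 157 and 176 RPM at dose 0 to 542 and 499 RPM at 1000 nM. Med14 (a Mediator subunit) rose by 2.08, Nt5e (the ectoenzyme CD73, which makes adenosine) by 2.40, Elk3 (an ETS factor) by 1.85, Nab1 (the second EGR corepressor) by 1.31 and Lef1 (a TCF family factor) by 1.21. The other abundant members Samsn1, Cd53, Mmd, Hspa4l, Gm13946, Gramd1b, Ap1s2, Nt5dc1 and Lcp2 also rose, by 0.66 to 2.28. Gm16335, Ndufb4, Vcp and Cdkn2a did not pass, with differences of 0.01 to 0.17.

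A set of 14 members was over 3-fold higher in dose 0 library number 2 than in number 1, in the libraries where the B cell markers were high. Prkcb, a protein kinase C of lymphocytes, had 17.6 and 263 RPM in libraries 1 and 2 at dose 0, and 43.0 and 246 RPM with engagement. Irf8 had 16.5 and 148 RPM and Ciita, the master regulator of MHC class II genes, 1.76 and 40.0 RPM without engagement. The others were Il21r, Akap2, Gnaz, Bcl6, Clec2d, Dusp2, Id3, Nfkb2, Nab2, Fas and Pim1. Without both libraries numbered 2, 92 of 108 members rose at 1000 nM and none fell, where 5.72% of all genes rose and 10.3% fell. The remaining dose 0 library is then assumed to vary like the other groups. Of the 92, 20 were not called with all libraries, and 4 members lost their call: 1810029B16Rik, E130317F20Rik, Map3k11 and Tdrd7. Prkcb then had a log2 difference of 0.72 (adjusted p = 0.0212), Bcl6 of 2.46 (adjusted p = 3.2e-06), Ciita of 1.31 (adjusted p = 0.0116) and Il21r of 1.75 (adjusted p = 0.000334, limma). In bulk RNA, a different number of cells of a type and a different amount of RNA per cell cannot be told apart.

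At 10 nM the response was small. None of the 108 members was called against dose 0 in limma, in either direction, where 0.0297% of all genes were called higher, and 20 members had an unadjusted p under 0.05. Nab2 had a log2 difference of 2.25 (SE 0.45, adjusted p = 0.16). Tnfrsf9 had 0.96 (SE 0.19, adjusted p = 0.16) and Ier2 0.71 (SE 0.17, adjusted p = 0.366, limma). With quantile normalization these 3 genes were called (0.0693% of all genes higher, 0.00991% lower), edgeR on recovered tags called 2 members higher (0.0594% of all genes higher, 0% lower) and DESeq2 called 7 (0.169% and 0.218%). Without both dose 0 libraries numbered 2, Nab2 was called, with a log2 difference of 3.23 (adjusted p = 9.84e-06, limma), where 0.0498% of all genes were higher and 0% lower. As a percentage of its unengaged rise above the 1 nM level, the median member stood at 9.31% at 10 nM and 83.2% at 1000 nM. The unengaged dose 0 libraries had a median of 9.56% on this scale, so the value at 10 nM shows no rise over their mean. That mean includes library number 2, in which 14 members were over 3-fold higher than in number 1. Against dose 0, the members' median log2 difference at 10 nM was −0.02, with 52 members above and 56 below 0. Over all genes the median was −0.10, with 3052 genes above and 7036 below 0.

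**Figure D2:**
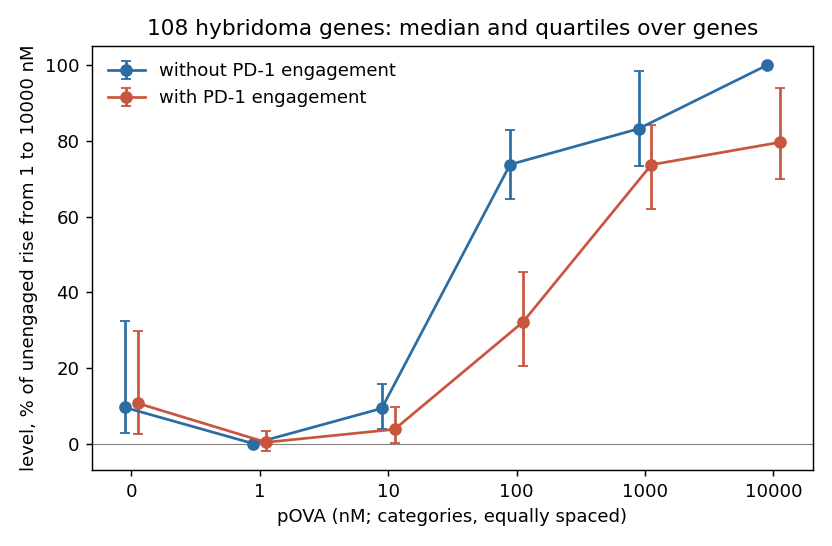
Level of the 108 members as a percentage of their unengaged rise from 1 to 10000 nM pOVA (y axis) by dose (x axis, equally spaced categories), as medians with quartiles over genes, without (blue) and with (red) PD-1 engagement. The unengaged 1 and 10000 nM points are 0 and 100 by construction, and at 100 nM the medians are 73.8 without and 32.1 with engagement.

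With PD-1 engaged, members still rose with antigen. The engaged libraries played no part in the choice, but they are at the doses that the rule used. Same-numbered engaged and unengaged libraries also deviated together (correlations 0.256 at 1 nM and 0.325 at 100 nM). The direction of the members here is therefore no independent support. At 100 against 1 nM with engagement, 34 of 108 members rose and none fell, where 0.664% of all genes rose and 0.0594% fell. Leaving out 1 library at a time gave 16 to 26 members, with the fewest without the second engaged 1 nM library (16), the second engaged 100 nM library (17) and the first engaged 1 nM library (22). Of the other induced genes, 22 of 147 rose. Nab2 rose by 4.76 (SE 0.45, adjusted p = 2.34e-06), Tnfrsf9 by 3.88 (SE 0.19, adjusted p = 1.08e-10) and Tnf by 1.84 (SE 0.21, adjusted p = 3.52e-05, limma). Nfkbia (1.00, adjusted p = 0.145) and Tnfaip3 (0.93, adjusted p = 0.303) did not pass at that dose. At 10000 against 1 nM with engagement, 89 of 108 members rose and none fell, where 7.68% of all genes rose and 7.54% fell. A similar share of the other induced genes rose there, 123 of 147.

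In the engaged series, 81 members were at least 2-fold higher at 10000 than at 1 nM. Their median share of the engaged rise was 0.376 at 100 nM and 0.889 at 1000 nM, and 8 of the 81 had a share of 0.6 or more at 100 nM. In the unengaged series the same 81 genes had a median share of 0.741 at 100 nM, which the choice fixed. The other induced genes had median shares at 100 nM of 0.230 with and 0.437 without engagement.

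The engaged level at each dose, as a percentage of the unengaged level, had a median over the members of 99.4% at dose 0 and 101.0% at 1 nM. It was 89.1% with 10 nM, lowest with 100 nM (65.7%), 93.0% with 1000 nM and 86.9% with 10000 nM. The other induced genes had 98.8%, 97.8%, 92.8%, 66.8%, 77.2% and 73.0% at the same doses. At 1, 100 and 10000 nM these ratios share the unengaged libraries that chose the genes, so they carry no test. At 100 nM, 105 of 108 members lay below 0 in the log2 difference, against 6252 of all 10098 genes. The members' median was −0.61, and the other induced genes had a median of −0.58. At 1000 nM, a dose the rule did not use, the medians were −0.11 and −0.37, and 78 of 108 members lay below 0, against 3799 of all 10098 genes. The difference between both groups of genes was not tested.

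**Figure D3:**
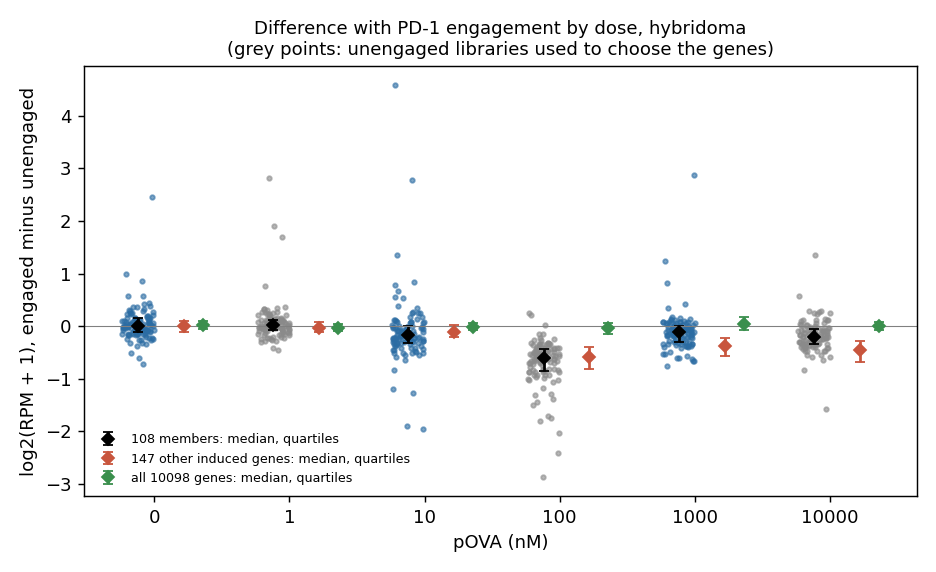
Log2(RPM + 1) with minus without PD-1 engagement (y axis) by pOVA dose (x axis) for each of the 108 members (points) with medians and quartiles of the members (black), of the 147 other induced genes (red) and of all 10098 genes (green). The members' median is lowest at 100 nM (−0.61), where the points are grey because the unengaged libraries chose the genes, and −0.17 at 10 nM and −0.11 at 1000 nM.

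Tests of engagement compare the 10 and 1000 nM libraries. The variance of each gene in these tests came from all hybridoma libraries, with both dose 0 libraries numbered 2 among them. Without engagement, 14 members were over 3-fold higher in dose 0 library number 2 than in number 1. These tests were not repeated without both libraries. Whether their spread widened the SE of such members, and so lowered the number of calls, was not tested. At 10 nM the summed B cell and antigen presentation markers had 161 and 182 RPM with engagement against 96.3 and 141 RPM without it, with no overlap. At 1000 nM they had 143 and 139 RPM against 71.3 and 146 RPM, where the groups overlap. The part of this in the members' differences was not tested. In the fit without pairs, 1 of 108 members, Tnfrsf9, was called lower in the mean over both doses (0.0693% of all genes), and none was called higher. Tnfrsf9 fell by 0.82 (SE 0.13, adjusted p = 0.0133, limma). Its engaged libraries had 2.33 and 1.86 RPM at 10 nM against 5.76 and 7.21 RPM unengaged, and 99.4 and 88.6 RPM at 1000 nM against 129 and 114 RPM. Engaged and unengaged libraries thus did not overlap at either dose, but the share of all genes without overlap was not counted. The call was lost without any 1 of 4 libraries, the second unengaged and second engaged at 10 nM, the first unengaged at 1000 nM and the second engaged at 1000 nM. The median difference was −0.14 in the members, −0.24 in the other induced genes and 0.02 over all genes.

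In the hybridoma, libraries with the same number and dose deviated together, so a fit with the pairs as a block was also made. It called 13 members lower and none higher in the mean of 10 and 1000 nM (0.822% of all genes lower, 0.277% higher): Cd69, Crem, Ier2, Med14, Nab2, Nfkbid, Nt5e, Obfc2a, Samsn1, Tigit, Tnf, Tnfrsf9 and Trib1. With the block Nab2 fell by 1.05 (adjusted p = 0.00047), Tnf by 0.47 (adjusted p = 0.00278), Cd69 by 0.38 (adjusted p = 0.0362) and Ier2 by 0.35 (adjusted p = 0.0056, limma). The lowest and highest differences without the block were those of Nab2, Tnfrsf9 and Tslp (−0.59) and of Gm10221 (3.73), Gm14017 (1.06) and Ndufb4 (0.80). Those of Gm10221 and Gm14017 rest on libraries that differ over 3-fold within a group.

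Each dose was also tested alone. At 10 nM, the fit without pairs called Tnfrsf9 lower (by 1.27, SE 0.19, adjusted p = 0.00594; 0.0396% of all genes; lost without the second unengaged or the second engaged 10 nM library), and the block called 8 members lower (0.139% of all genes), namely Ier2, Junb, Lef1, Nab2, Obfc2a, Pdcd1, Tnfrsf9 and Trib1. Nab2 had 3 and 2.39 RPM with engagement against 13.1 and 12.4 RPM, a fall of 1.90 (adjusted p = 6.1e-05 with the block, 0.656 without it, limma). Its variance in both fits includes the dose 0 libraries, with 0.46 and 4.72 RPM without engagement and 0.56 and 2.97 RPM with it. Ier2 had 18.8 and 18.9 RPM against 26.5 and 29.5 RPM. At 1000 nM the fit without pairs called no member (13 at an unadjusted p under 0.05, with 0.0693% of all genes lower and 0.00991% higher). The block called 11 lower (2.02% of all genes) and 1 higher (5.32%). The lower ones were Crem, Dusp2, Gm14718, Hspa4l, Med14, Nfkbid, Nt5e, Samsn1, Tigit, Tnf and Traf5. Tnf had 120.1 and 121 RPM with engagement against 171 and 200.5 RPM, a fall of 0.61 (adjusted p = 0.00289 with the block, limma).

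Lef1 was the member called higher at 1000 nM with the block. It had 18.4 and 16.2 RPM with engagement at 10 nM against 26.2 and 25.1 RPM without it, and 70.8 and 38.5 RPM at 1000 nM against 49.2 and 33.6 RPM, where the groups overlap. The difference between the 2 doses was tested directly. In the fit without pairs it was called for no member (5 at an unadjusted p under 0.05; 0% of all genes). With the block, 3 members had a lower engagement difference at 10 than at 1000 nM (0.594% of all genes), and none a higher one (0.208%). They were Nab2 (lower by 1.69 on the log2 scale, adjusted p = 0.00699), Tnfrsf9 (by 0.90, adjusted p = 0.037) and Lef1 (by 0.90, adjusted p = 0.0034, limma). The difference at 10 and at 1000 nM was −1.90 and −0.21 for Nab2, −1.27 and −0.37 for Tnfrsf9, and −0.54 and 0.35 for Lef1. At dose 0, engagement was called for no member, with 0% of all genes called, in limma with and without the block. No member had an unadjusted p under 0.05 there.

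In primary CD4+ T cells, 98 of the 108 members were measured, and antibody to CD3 gave a mixed picture. At 100 ng/ml 2C11 without engagement, 50 members rose and 3 fell (19.2% and 7.21% of all genes). At 1000 ng/ml 53 rose and 15 fell (31.1% and 29.9%), and at 10000 ng/ml 54 rose and 22 fell (27.5% and 40.1%). The other induced genes behaved much alike. Of 132 tested, 68 rose and 2 fell at 100 ng/ml, 87 and 9 at 1000 ng/ml, and 83 and 17 at 10000 ng/ml. Markers moved with the dose as well. The summed level of the 8 T cell markers was 4687 and 4822 RPM at dose 0 and 3665 to 3690 RPM at 10000 ng/ml, with 7 of 8 lower and none higher. That of the 3 of 6 NK and cytotoxic markers measured was 119 and 89.3 RPM at dose 0 and 255 to 268 RPM at 10000 ng/ml, with 2 higher and 1 lower. None of 9 B cell markers was called at that dose. The part of these in the members' values was not tested. Sema7a, a semaphorin on activated lymphocytes, had the largest rise, from 8.58 and 6.66 RPM at dose 0 to 56.5 and 65.1 RPM at 100 ng/ml and 211, 205 and 215 RPM at 10000 ng/ml (log2 difference at 10000 ng/ml 4.63, SE 0.14, adjusted p = 5.56e-15, limma). Tnf rose by 2.73, Lta by 2.55, Pdcd1 by 2.39 and Tnfrsf9 by 2.17. Nab2 was highest at the middle doses, with 81.2 and 89.6 RPM at 100 ng/ml, 83.6 and 81.7 RPM at 1000 ng/ml and 53.7, 56.1 and 52.7 RPM at 10000 ng/ml. Nab1 also had its highest level at 100 ng/ml (38.7 and 44.6 RPM), and at 10000 ng/ml (20.9, 22.8 and 27.9 RPM) it did not pass against dose 0 (20.8 and 20.5 RPM).

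Doses of peptide and antibody are on different scales, so only the shape of each series is set side by side. In CD4+ cells, 28 members had at least 5 RPM and a 2-fold rise in (RPM + 1) at 10000 ng/ml. Their median share of that rise at 100 ng/ml was 0.499, and 11 of 28 (39.3%) had a share of 0.6 or more. Of all 897 CD4+ genes that met these 2 criteria, the median share was 0.337 and 10.3% had a share of 0.6 or more. No test was made of this difference.

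**Figure D4:**
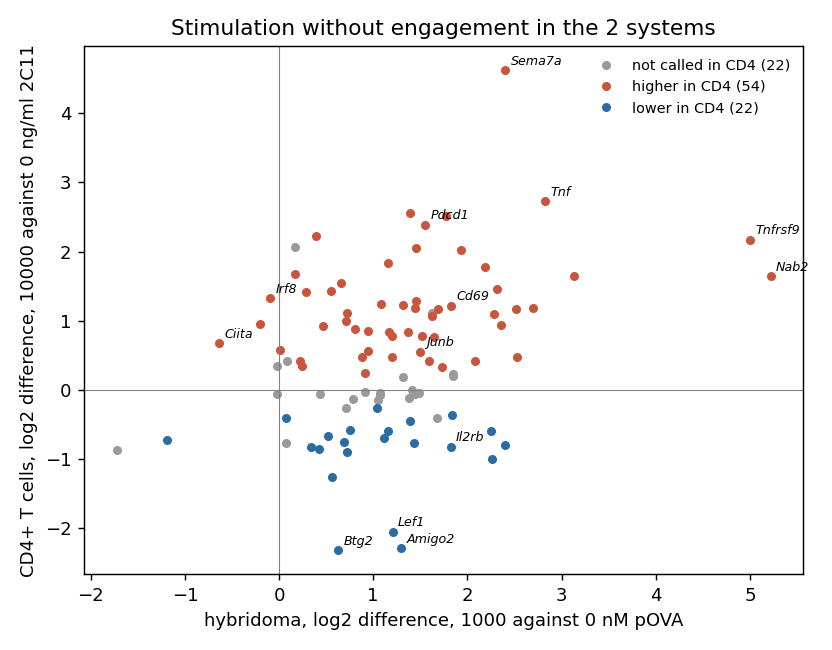
Log2 difference with stimulation without engagement for the 98 members measured in both systems, hybridoma 1000 against 0 nM pOVA (x axis) and CD4+ T cells 10000 against 0 ng/ml 2C11 (y axis), coloured by the call in CD4+ cells. The points for Btg2, Amigo2 and Lef1 lie to the right of 0 and below −2, while those for Sema7a, Tnf, Tnfrsf9 and Nab2 are high in both.

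Of the 76 members that rose in the hybridoma at 1000 nM, 69 were measured in CD4+ cells, where 43 rose, 13 fell and 13 were not called at 10000 ng/ml. The 13 that fell are a smaller share than among all genes, of which 40.1% fell, with a median of −0.15. Lef1, a factor of naive T cells, had 240.3 and 248 RPM at dose 0 and 60.1, 57.8 and 57.2 RPM at 10000 ng/ml (log2 difference −2.05, SE 0.09, adjusted p = 3.05e-13). Btg2, an antiproliferative gene, had 113 and 122 RPM at dose 0 and 23.4, 22.6 and 22.4 RPM at 10000 ng/ml (log2 difference −2.32, SE 0.12, adjusted p = 2.42e-12, limma). Amigo2, an adhesion molecule gene, fell by 2.29, Clec2d by 0.99, Tnfrsf14 (the receptor HVEM) by 0.89 and Il2rb (the IL-2 receptor beta chain) by 0.82. Cd28 fell by 0.77 and Cd27, a costimulatory receptor, by 0.60. Both systems started from different levels, set side by side here although the tables were normalized separately. At dose 0 Il2rb had 540.5 and 581 RPM in CD4+ cells and 7.88 and 8.14 RPM in the hybridoma. Of the NF-κB brakes, Nfkbia fell by 0.27 (adjusted p = 0.0249) and Tnfaip3 by 0.36 (adjusted p = 0.00342, limma) in CD4+ cells, while Nfkbid rose by 1.77. The remaining 3 of the 13 were Nt5e, Ap1s2 and Baiap2.

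With engagement in CD4+ cells, the middle of all genes shifted as well. The median log2 difference over all genes was −0.14 in the mean of 10 to 10000 ng/ml, −0.29 at 100, −0.17 at 1000 and 0.02 at 10000 ng/ml. The members' medians were −0.27, −0.46, −0.26 and −0.08, and those of the other induced genes −0.37, −0.54, −0.42 and −0.20. In the mean of the stimulated doses, 59 of 98 members were called lower and 3 higher, against 41.2% and 4.48% of all genes. With quantile normalization, which removes the shift, 35 members were lower and 6 higher, against 12.7% and 14.1% of all genes. At 100 ng/ml the counts were 57 lower and 0 higher (37.3% and 1.91% of all genes), and 22 and 4 with quantile normalization (8.49% and 8.24%). At 1000 ng/ml they were 31 and 4 (19.4% and 3.3%), and 14 and 5 (6.21% and 8.25%). At 10000 ng/ml they were 14 and 4 (2.58% and 5.89%), and 15 and 4 (3.52% and 4.71%). Without quantile normalization, 89 of the 132 other induced genes tested were lower and 4 higher in the mean. By dose they were 80 and 4 at 100 ng/ml, 63 and 1 at 1000 ng/ml, and 27 and 4 at 10000 ng/ml. Single libraries moved the counts of lower members. Without the second unengaged library 34 were left at 100 ng/ml, and without any 1 of the 4 libraries at 1000 ng/ml 14 to 18 were left. At 10000 ng/ml 8 or 9 were left without unengaged library 1 or 3 or engaged library 2 or 3.

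Among the members lower at 100 ng/ml under both scalings were Sema7a (28.3 and 21.3 RPM with engagement against 56.5 and 65.1 RPM, log2 difference −1.27, SE 0.16, adjusted p = 5.06e-05), Pdcd1 (29.8 and 35.8 against 60.7 and 63.4 RPM, −0.90), Nab2 (46.6 and 43.8 against 81.2 and 89.6 RPM, −0.90) and Tnfrsf9 (81.9 and 92.5 against 142 and 157 RPM, −0.77, all in limma). The other 18 of the 22 were Creb3l2, Dusp5, Eno3, Frmd6, Gm5828, Gramd1b, Il2rb, Irf8, Lcp2, Med14, Nab1, Nfatc1, Nrgn, Obfc2a, Prkch, Tnf, Tnfaip3 and Zswim4, by 0.32 (Tnfaip3) to 1.14 (Nrgn) with quantile normalization. In each of the first 4 genes the engaged and unengaged libraries did not overlap in RPM. At that dose 8531 of all 10219 genes lay below 0 in the log2 difference, and the share of all genes without overlap was not counted. With quantile normalization the differences were −0.97 for Sema7a, −0.60 for Pdcd1, −0.61 for Nab2 and −0.53 for Tnfrsf9. At 10000 ng/ml, Nab2 no longer lay below the unengaged level, with 55.4, 59.6 and 60.6 RPM against 53.7, 56.1 and 52.7 RPM, and Tnfrsf9 still did, with 171, 158 and 151 RPM against 229, 229 and 232 RPM. Id3, an inhibitor of E proteins, was higher with engagement in the mean of the stimulated doses (log2 difference 0.24), as were Clec2d (0.29) and Cdkn2a (0.37).

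**Figure D5:**
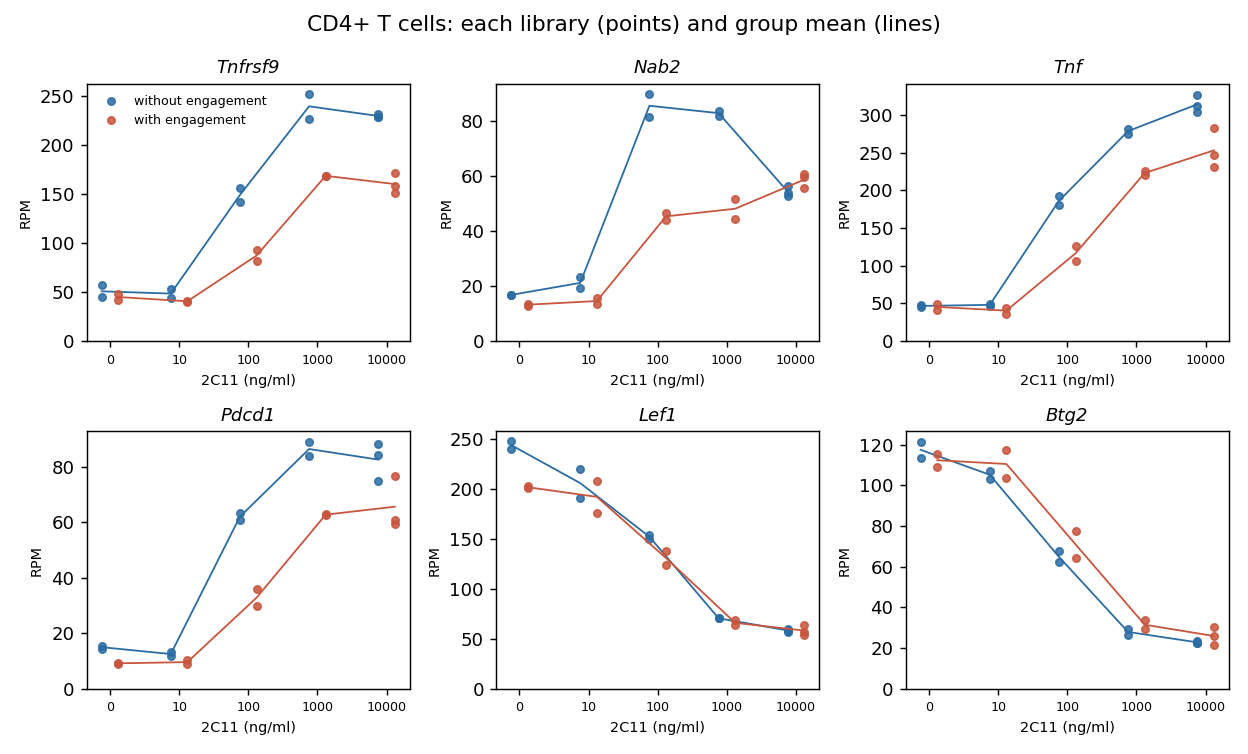
RPM of 6 members in every CD4+ T cell library (points) and group means (lines) by 2C11 dose, drawn as equally spaced categories, without (blue) and with (red) PD-1 engagement. Tnfrsf9, Nab2, Tnf and Pdcd1 are lower with engagement at 100 and 1000 ng/ml in every library, Nab2 reaches the unengaged level at 10000 ng/ml, and Lef1 and Btg2 fall with dose in both series. The median log2 difference with engagement over all genes is −0.29 at 100 and −0.17 at 1000 ng/ml. At these doses 8531 and 7356 of all 10219 genes lie below 0, and the share of all genes without overlap was not counted.

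Markers of other cell types moved with engagement in CD4+ cells. Of 10 markers of B cells and antigen presentation 9 were measured, and in the mean of the stimulated doses 7 of them were higher and none lower. Their summed level was 921 and 1046 RPM with engagement against 611 and 742 RPM at 100 ng/ml, and 749.6 and 938 RPM against 473 and 626 RPM at 1000 ng/ml, so the groups did not overlap at these doses. They overlapped at 10 ng/ml and at 10000 ng/ml, where the range was 758 to 1084 RPM with and 507 to 822 RPM without engagement. In the same mean 2 of 3 NK and cytotoxic markers were lower, and 5 of 8 T cell markers were lower and 1 higher. The summed NK and cytotoxic level at 10000 ng/ml was 143 to 167 RPM with and 255 to 268 RPM without engagement. The members Irf8, Prkcb, Gnaz and Amigo2 were the 4 called higher with engagement at 10000 ng/ml, under both scalings. Prkcb had 73.5, 102 and 81.2 RPM against 34.6, 52.5 and 41.7 RPM, and its groups did not overlap (the share of all genes without overlap was not counted). The part of such cells in the members' differences with engagement was not tested.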

How the data were processed

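The deposited tables hold RPM (tags scaled to library size) for each CAGE tag cluster, made by the authors, 1 table for each system. BWA 0.7.12, HISAT2 2.0.5 and build mm9 are named in the submitters' processing notes, with no role given, and the normalization is not described in the sources used here. Clusters with the same gene symbol were summed, and clusters with no symbol or with several were left out (4477 and 356 of 18025 in the hybridoma, 3643 and 371 of 17272 in CD4+ cells). Every cluster reached about 3 RPM in some library (lowest maxima 3.01 and 3.00 RPM).

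Tests used genes that reached 1 RPM in 2 or more libraries, on log2(RPM + 1) with limma 3.58.1 (R 4.3.3, trended variance), 1 fit per system over all its libraries, with Benjamini-Hochberg adjustment over all genes tested (10094 and 10217) and a threshold of 0.05. Fold changes on this scale understate those of low genes. Both tables were normalized separately, so tests stay within a table. Whole tags were recovered from the RPM steps (at least 99.9% of values whole within 0.1 tag) and tested with edgeR 4.0.16 and DESeq2 1.42.0 as alternatives. Other alternatives were pseudocounts of 0.5 and 5, no filter and a 5 RPM filter, quantile normalization, the replicate block and leaving out each library.

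Same-numbered engaged and unengaged hybridoma libraries deviated together from their group means (correlations 0.256 to 0.759 over the 6 doses, across genes), so their numbers were taken as pairs. Members and gene lists were chosen with earlier results of these data known. Genes named are the members on the pathway lists, the 30 most abundant members at 1000 nM without engagement, those next to the share limit, the 3 largest and 3 smallest engagement differences, members opposite in CD4+ cells, and a few singled out after their values were seen.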

Additional observations from a re-analysis of the deposited data

Results flagged for a closer look

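For 13 members the direction of stimulation was opposite in the 2 systems. Every hybridoma library at 1000 nM lay above every one at 0 nM, and every CD4+ library at 10000 ng/ml lay below every one at 0 ng/ml. The log2 differences in CD4+ cells were −2.32 for Btg2, −2.29 for Amigo2, −2.05 for Lef1, −0.99 for Clec2d, −0.89 for Tnfrsf14, −0.82 for Il2rb, −0.80 for Nt5e, −0.77 for Cd28, −0.60 for Baiap2, −0.60 for Cd27, −0.45 for Ap1s2, −0.36 for Tnfaip3 and −0.27 for Nfkbia. At 10000 ng/ml 40.1% of all CD4+ genes fell, with a median log2 difference of −0.15, so a fall there is common. The difference between the systems was not tested, since their tables were normalized separately.

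For 3 members the effect of engagement in the hybridoma differed between 10 and 1000 nM in the fit with pairs as a block. The differences (10 minus 1000 nM, log2) were −1.69 for Nab2, −0.90 for Tnfrsf9 and −0.90 for Lef1. Without the block limma called none of them.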

How the results depend on the processing

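Of 570 called results of single members, 7983 alternative values kept their direction and call in 7287, lost the call in 684 and changed sign in 12. All 12 were in CD4+ cells with engagement. In the mean of the stimulated doses the log2 differences became 0.0128 for Cd28, 0.0241 for Il21r, 0.00899 for Nt5dc1 and 0.0111 for Tnfrsf1b with quantile normalization, 0.0328 and 0.0104 for Cd28 and Il21r in edgeR, and 0.0374 and 0.0174 in DESeq2. At 100 ng/ml they became 0.0537 for Nt5dc1 and 0.00626 for Tigit with quantile normalization, and for Tigit 0.00384 in edgeR and 0.0132 in DESeq2. The cause was not tested.

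Counts of members beyond 1.5 times the reported one were these. A share limit of 0.7 gave 65 members and a fold limit of 3 gave 54, in place of 108. Taking the base from the 0 nM libraries gave 81, of which 59 were shared with the 108. At 10 against 0 nM, 0 became 3 (quantile), 2 (edgeR), 7 (DESeq2), 1 (replicate block), 1 (without both dose 0 libraries numbered 2, an alternative chosen after seeing the data) and 0 to 4 leaving out 1 library. Engaged 100 against 1 nM gave 16 to 26. Engagement in the hybridoma mean gave 0 (pseudocount 5), 4 (DESeq2), 13 (replicate block) and 0 to 1 leaving out 1 library. At 10 nM it gave 0 (pseudocount 5), 2 (quantile), 2 (DESeq2), 8 (replicate block) and 0 to 1. At 1000 nM the replicate block gave 11, and for 10 minus 1000 nM DESeq2 gave 1 and the block 3. In CD4+ cells 5 members fell at 100 ng/ml with quantile normalization, edgeR and DESeq2, in place of 3. The members lower with engagement were 35, 36 and 33 of 98 in the mean (quantile, edgeR, DESeq2), 22, 23 and 19 at 100 ng/ml (34 to 51 leaving out 1 library, with 34 without the second unengaged library), 14, 13 and 15 at 1000 ng/ml (14 to 18) and 23 in edgeR at 10000 ng/ml (8 to 16).

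At 1000 against 0 nM the split of all genes was 721 higher and 2365 lower, and 1273 and 1365 with quantile normalization. Same-numbered CD4+ libraries correlated at 0.0129 to 0.255, highest at 1000 ng/ml (0.248) and for number 2 at 10000 ng/ml (0.255). The summed B cell markers were higher in number 2 than in number 1 in every CD4+ group below 10000 ng/ml. At 10000 ng/ml with engagement they were lower in number 2. Whether the number stands for a shared effect in CD4+ cells was not tested. The replicate block there gave 62 members lower in the mean and 60 at 100 ng/ml. Counting clusters with several symbols for each symbol was not run, because the tables do not name those symbols. Low levels rest on few tags, and members that jump between libraries of a group (Gm10221, Gm14017, Gm9833, Phf10 and Vcp) support no comparison.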
